A study of Mus musculus with 2 samples.

Results

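The ion channels and sodium pumps of the mouse kidney were described here as a set of 100 genes among the 19829 genes of the deposited table. They were chosen by symbol: the K+ channel genes and their auxiliary subunits (Kcn), the CLC chloride channels and exchangers (Clcn), the epithelial sodium channel ENaC (Scnn1), the subunits of the Na,K-ATPase, its FXYD regulators (Fxyd), the transient receptor potential channels (Trpc, Trpm, Trpv) and *Cftr*. The rule left out 3 symbols of these families and used no measured value. A further 46 annotated genes that meet the rule, among them *Fxyd3*, *Kcna3* and *Trpv1*, were not analysed here. Checked against gene function, 2 of the 100 genes were found to be no channel: *Kcnq1ot1*, a long noncoding RNA antisense to *Kcnq1*, and *Trpc4ap*, whose product binds TRP channels.

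Whole-kidney mRNA was sequenced as 1 library per group. The group WT+AKI came from wild-type mice and the group TG+AKI from mice that overexpress *Inmt* in proximal tubules. Both groups were male C57BL/6 littermates. By the study's methods both received high-dose voclosporin, a calcineurin inhibitor, at 30 mg/kg daily for 2 weeks from 8 weeks of age, and both underwent bilateral renal ischemia of 30 min with reperfusion at 14 weeks of age, so no sham or untreated kidney enters the comparison. The treatment field of the labels names no treatment, and the title of the TG+AKI sample also calls the mice conditional knockouts. The promoter of the transgene and the number of mice behind each library are not given in the sources used here.

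Sodium transport along the nephron runs on the Na,K-ATPase of the basolateral membrane, which pumps sodium out of the cell and potassium in. K+ channels on the same membrane return the potassium and set the membrane voltage, and chloride leaves through basolateral chloride channels. In the thick ascending limb the apical channel ROMK recycles potassium for the Na-K-2Cl cotransporter. In the collecting duct ENaC takes up sodium, and ROMK and the large-conductance BK channel secrete potassium. Injured tubules are known to lose transport gene expression.

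The libraries held 38542764 reads (WT+AKI) and 36427421 reads (TG+AKI), and the channel and pump genes took 0.983% and 1.04% of them. Values are reads per 1000000 of a library scaled by the trimmed mean of M-values (TMM), and 1 read was worth 0.0236 in WT+AKI against 0.0302 in TG+AKI. The overexpressed gene was high in the library labelled for it, *Inmt* being at 10.4 in WT+AKI against 402.8 in TG+AKI. The 4 markers of injured tubules (*Havcr1*, *Lcn2*, *Krt20*, *Sox9*) summed to 1829 in WT+AKI against 5.53 in TG+AKI, each being at least 2-fold lower in TG+AKI. The 4 proximal tubule markers summed to 1785 and 9344, all 4 at least 2-fold higher in TG+AKI. Where 2 values are given without a library, the first is WT+AKI. Each ratio is TG+AKI over WT+AKI and carries, where printed in brackets, a 95% exact (Clopper-Pearson) interval of the reads. These intervals cover counting error only, for reads that are PCR products without molecular identifiers, and compare 2 libraries. With 1 library per group there is no replicate error and no test of the conditions. In whole-kidney RNA, fewer cells of a type and less RNA per cell cannot be told apart.

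Most channel and pump genes lay within 2-fold between the libraries, and those beyond it were split evenly by direction. A mean value of at least 1 was reached by 64 of the 100 genes. A gene counted as higher or lower when its log2(value + 0.1) differed by at least 1. By this rule 7 of the 64 (10.9%) were higher in TG+AKI, where 6.46% of all 14543 compared genes were. Another 7 (10.9%) were lower, where 9.78% of all compared genes were. The higher genes were *Kcnj1*, *Clcn6*, *Kcnt1*, *Kcnma1*, *Kcnn1*, *Kcnn2* and *Kcnab2*. The lower genes were *Fxyd5*, *Cftr*, *Trpv2*, *Trpv6*, *Kcnk6*, *Kcns3* and *Kcnh1*. Exons of *Cftr*, *Kcnma1*, *Kcnn1* and *Kcnn2* overlap an annotated gene on the opposite strand, and those of *Fxyd5* and *Kcnab2* one on the same strand. The median log2 difference was 0.15 over the 64 genes and -0.01 over all compared genes. With equal column totals the medians were -0.12 and -0.29, a shift of -0.27 for every gene, so small differences depend on the scaling.

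**Figure D1:**
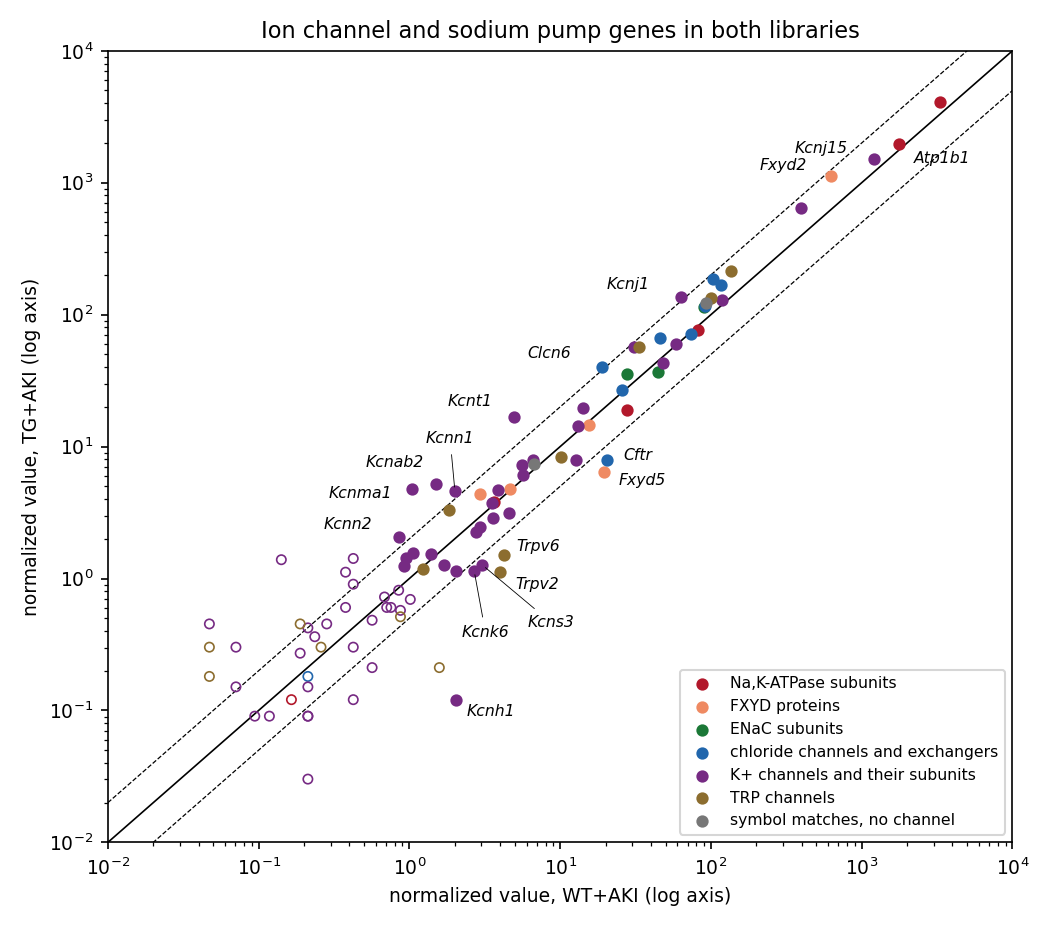
Normalized value of each of the 100 channel and pump genes in WT+AKI (x axis, log) and TG+AKI (y axis, log), 1 point per gene, coloured by family. Filled points are the 64 compared genes and open points the 36 below the mean value of 1, the solid line marks equal values, and the dashed lines mark 2-fold. The 13 genes with a mean of at least 100 all lie between the dashed lines. The points beyond them lie at lower means, the highest being *Kcnj1* at 99.4.

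Differences beyond 2-fold were found at mean values below 100. The highest of these genes, *Kcnj1*, lay just under that line, at a mean of 99.4. None of the 13 channel and pump genes with a mean value of at least 100 passed 2-fold, against 18.2% of the 1866 genes at that level in the whole table. Of the 33 with a mean of at least 10, 5 passed (12.3% of 9853 genes in the whole table did). Of the 31 with a mean from 1 to 10, 9 passed (24.5% of 4690 genes did). In 4 compared genes 1 library was below a value of 1, and 2 of these, *Kcnn2* and *Kcnh1*, were past 2-fold.

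**Figure D2:**
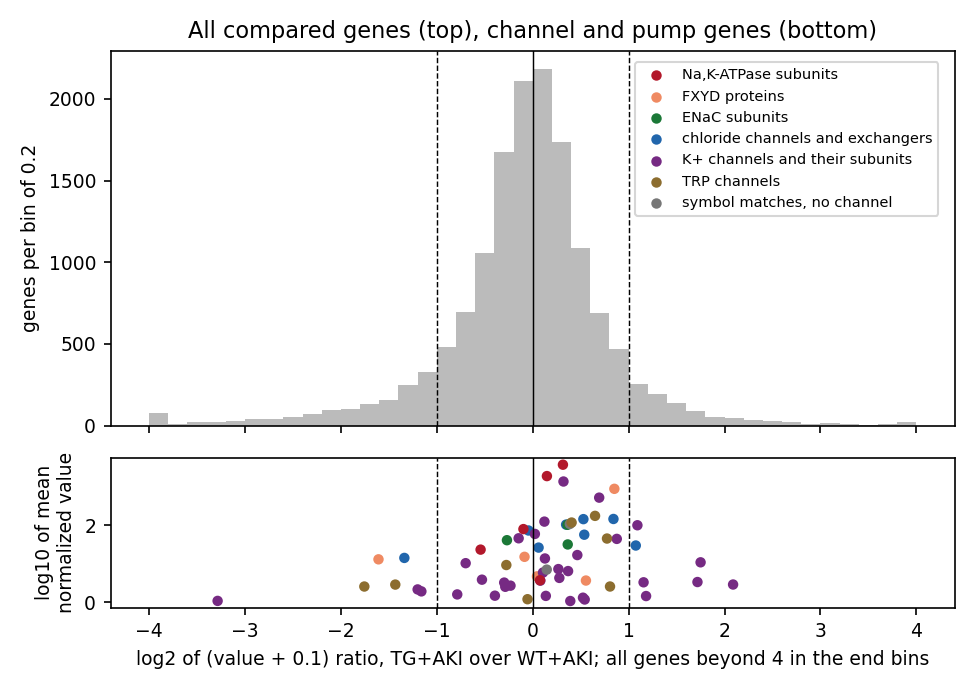
Top, histogram of the log2 difference of (value + 0.1), TG+AKI over WT+AKI, for all 14543 compared genes (y axis, genes per bin). Bottom, the 64 compared channel and pump genes on the same x axis against the log10 of their mean normalized value, coloured by family, with dashed lines at 2-fold. The channel and pump genes spread around 0 with a median of 0.15, and *Kcnh1* at -3.29 stands farthest out.

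The beta subunits carry the sodium pump to the membrane, and they differed in direction. *Atp1b1* (chr1:164437099-164458355, GRCm38), the main renal beta subunit, was at 1776 and 1968, a ratio of 1.11 [1.10 to 1.12] whose log2 difference of 0.15 became -0.13 with equal column totals. *Atp1b3* was at 81.7 and 76.4, a ratio of 0.935 [0.888 to 0.985]. *Atp1b2* was at 27.5 and 18.9, a ratio of 0.685 [0.621 to 0.756], the lowest of the 3. *Atp1b1* made up 94.2% of beta subunit reads in WT+AKI against 95.4% in TG+AKI. Exons of *Atp1b1* overlap *Nme7* on the opposite strand, and whether reads were counted by strand is not given in the sources used here.

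The FXYD proteins are small single-pass subunits that tune the pump's affinity for its ions, and the set of 5 was split. *Fxyd2* (chr9:45399709-45410278), the gamma subunit of proximal and thick limb pumps, was at 624.2 in WT+AKI against 1126 in TG+AKI. The value was higher in TG+AKI, at a ratio of 1.80 [1.78 to 1.83], short of the 2-fold rule. *Fxyd5* (chr7:31032723-31042331), dysadherin, a FXYD protein known from epithelial cell adhesion, went the other way. It was at 19.6 (832 reads) in WT+AKI against 6.37 (211 reads) in TG+AKI, 3.08-fold lower [2.65 to 3.60]. *Fxyd2* took 93.6% [93.3 to 93.9] of FXYD reads in WT+AKI and 97.4% [97.2 to 97.5] in TG+AKI. The share of *Fxyd5* was 2.94% [2.75 to 3.15] and 0.551% [0.479 to 0.630].

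The other FXYD genes lay within 2-fold. *Fxyd4*, the collecting duct regulator CHIF, was at 15.5 and 14.6, a ratio of 0.942 [0.836 to 1.06]. *Fxyd1*, phospholemman, was at 4.62 and 4.77, a ratio of 1.03 [0.832 to 1.28], and its log2 difference of 0.04 became -0.22 with equal column totals. *Fxyd6* was at 2.95 and 4.38, a ratio of 1.49 [1.16 to 1.90]. The median log2 difference of the 5 was 0.04. Beside the lower *Fxyd5*, 3 of the 4 macrophage markers were at least 2-fold lower in TG+AKI, and the 4 summed to 103.6 in WT+AKI against 55.3 in TG+AKI. The remaining macrophage marker, *Csf1r*, was slightly higher, at 37.5 and 43.0, a ratio of 1.15 [1.07 to 1.23]. The injured tubule markers were lower in TG+AKI, as given above. The part of both marker lists in the result was not tested.

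The inward rectifier K+ channels of the tubule were all higher in TG+AKI, from 1.25-fold to over 2-fold. *Kcnj1* (chr9:32372418-32399197) encodes ROMK, the apical secretory channel of thick limb and collecting duct. Its value was 63.5 (2691 reads) in WT+AKI against 135.4 (4483 reads) in TG+AKI, a ratio of 2.13 [2.03 to 2.24] and a log2 difference of 1.09. It was the only one of the 4 past 2-fold, and it was short of that under equal column totals or a median ratio of 1.

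The basolateral channels followed in the order of their ratios. *Kcnj10* (chr1:172341210-172374085) encodes Kir4.1, which forms the basolateral channel of the distal convoluted tubule with Kir5.1. It was at 31.0 and 57.1, a ratio of 1.84 [1.71 to 1.97]. Its partner *Kcnj16* (chr11:110968033-111027968), encoding Kir5.1, was at 395.1 and 638.8, a ratio of 1.62 [1.58 to 1.65]. *Kcnj15* (chr16:95257558-95300260), encoding Kir4.2 of the proximal tubule, was at 1204 and 1504, a ratio of 1.25 [1.23 to 1.26]. The intervals of the 4 ratios do not overlap. The median log2 difference of the 4 was 0.78, and 0.51 with equal column totals.

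Markers of the segments that hold these channels summed to more in TG+AKI as well. The proximal tubule markers summed to 1785 and 9344, with 4 of 4 past 2-fold. The thick ascending limb markers (*Umod*, *Slc12a1*, *Ptger3*) summed to 1836.5 and 2996, with 1 of 3 past 2-fold. The distal convoluted tubule markers (*Slc12a3*, *Pvalb*) summed to 98.8 and 514.9, with 2 of 2 past 2-fold. The principal cell markers summed to 267.5 and 374.9, with 1 of 4 past 2-fold, and the intercalated cell markers to 128.7 and 195.9, with 1 of 4 past it. Of the intercalated cell markers, 2 had intervals above 1. The intervals of *Atp6v1g3*, at a ratio of 0.977 [0.909 to 1.05], and *Foxi1*, at 1.06 [0.971 to 1.15], included 1. The part of these segment markers in the K+ channel ratios was not tested.

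The stretches upstream of *Kcnj1*, *Kcnj10* and *Kcnj16* are shown because these genes had the largest ratios of the 4 tubular inward rectifiers. Each is the 250 bases before a RefSeq transcription start (GRCm38.p6), read 5′ to 3′ on the strand of the gene, which is the plus strand for all 3. The *Kcnj1* start lies inside the annotated gene body, and for *Kcnj16* the first of 4 starts is given. Capitals mark matches, on either strand, to a steroid receptor motif (AGAACA, or TGTTCT on the other strand), the CCAAT box (ATTGG) or an HNF1 motif (GTTAAT, or ATTAAC). These windows cover chr9:32393735-32393984 for *Kcnj1*, chr1:172340960-172341209 for *Kcnj10* and chr11:110967783-110968032 for *Kcnj16*, and they overlap 0 annotated exons.
Kcnj1: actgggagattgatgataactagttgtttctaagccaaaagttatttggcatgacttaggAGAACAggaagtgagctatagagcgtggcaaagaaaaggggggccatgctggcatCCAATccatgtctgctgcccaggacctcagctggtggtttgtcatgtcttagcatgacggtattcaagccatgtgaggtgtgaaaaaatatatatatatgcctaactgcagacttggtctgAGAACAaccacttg
Kcnj10: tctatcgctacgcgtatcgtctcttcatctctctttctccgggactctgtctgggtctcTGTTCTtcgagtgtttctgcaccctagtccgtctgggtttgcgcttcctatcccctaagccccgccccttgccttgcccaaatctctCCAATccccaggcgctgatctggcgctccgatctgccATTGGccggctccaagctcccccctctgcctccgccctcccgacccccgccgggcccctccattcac
Kcnj16: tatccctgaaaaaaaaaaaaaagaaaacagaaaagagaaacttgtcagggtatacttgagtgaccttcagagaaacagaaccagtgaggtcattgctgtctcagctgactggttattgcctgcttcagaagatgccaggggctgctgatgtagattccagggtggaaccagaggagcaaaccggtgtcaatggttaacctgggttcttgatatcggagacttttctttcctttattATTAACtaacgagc

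The windows of *Kcnj1* and *Kcnj10* held the same pair of motifs. In *Kcnj1* the AGAACA matches began 190 and 14 bases before the start and the CCAAT match 135 bases before it. In *Kcnj10* the AGAACA match lay 191 bases before the start and the CCAAT matches 104 and 67 bases before it. None of the matches overlapped another. The printed *Kcnj16* window held neither, and its 1 match to GTTAAT began 14 bases before the start. Of the other *Kcnj16* windows, the one at chr11:111023610-111023859 held a CCAAT match 60 bases before its start. The motif AGAACA was found in 16.1% of all 32851 windows of this length, CCAAT in 33.8% and GTTAAT in 6.43%. Among the 98 windows of 72 channel and pump genes, the shares were 12.2%, 28.6% and 3.06%. A match is a description of letters.

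Chloride channels of the plasma membrane are described by *Clcn2*, *Cftr* and a subunit. *Bsnd*, encoding barttin, a subunit of renal chloride channels that lies outside the symbol rule, was at 14.4 and 57.9, a ratio of 4.02 [3.67 to 4.41]. *Clcn2* was at 25.6 and 26.8, a ratio of 1.04 [0.954 to 1.14] that includes 1. Its log2 difference of 0.06 became -0.21 under equal column totals and -0.08 under a median ratio of 1.

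*Cftr* was lower in TG+AKI. *Cftr* (chr6:18170687-18322770), a chloride channel opened by protein kinase A, was at 20.3 (861 reads) in WT+AKI against 7.97 (264 reads) in TG+AKI. It was 2.55-fold lower [2.22 to 2.94], and the 2-fold rule held under each of the 3 other scalings tried.

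The intracellular CLC proteins, which exchange chloride for protons in endosomes and lysosomes, were mostly higher. *Clcn6* (chr4:148004259-148038813), the exchanger of late endosomes, was at 19.1 (808 reads) and 40.3 (1333 reads). It was the only one past 2-fold, at a ratio of 2.11 [1.93 to 2.31], and fell short of it with equal column totals or a median ratio of 1. *Clcn3* was at 117.3 and 169.2, a ratio of 1.443 [1.388 to 1.499]. *Clcn4* was at 90.9 and 115.7, a ratio of 1.27 [1.22 to 1.33]. *Clcn7*, the lysosomal exchanger, was at 73.8 and 71.6, a ratio of 0.970 [0.919 to 1.02] that includes 1. *Clcn1*, the chloride channel of skeletal muscle, had 9 and 6 reads.

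The 3 subunits of ENaC, the amiloride-sensitive sodium channel of the collecting duct, lay within 2-fold and did not share a direction. *Scnn1a* (chr6:125314271-125344943), the alpha subunit, was at 89.4 and 115.0, a ratio of 1.29 [1.23 to 1.35]. *Scnn1g*, the gamma subunit, was at 27.6 and 35.6, a ratio of 1.29 [1.19 to 1.40]. *Scnn1b*, the beta subunit, was at 44.5 and 36.9, a ratio of 0.830 [0.772 to 0.892]. Alpha and gamma were thus higher in TG+AKI and beta lower, as deposited. The median log2 difference of the 3 was 0.36, and 0.09 with equal column totals. Per kb of the longest transcript, the levels in WT+AKI were 25.6 for alpha, 17.2 for beta and 9.23 for gamma, and in TG+AKI 32.9, 14.3 and 11.9. Alpha was the highest and gamma the lowest in both libraries.

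**Figure D3:**
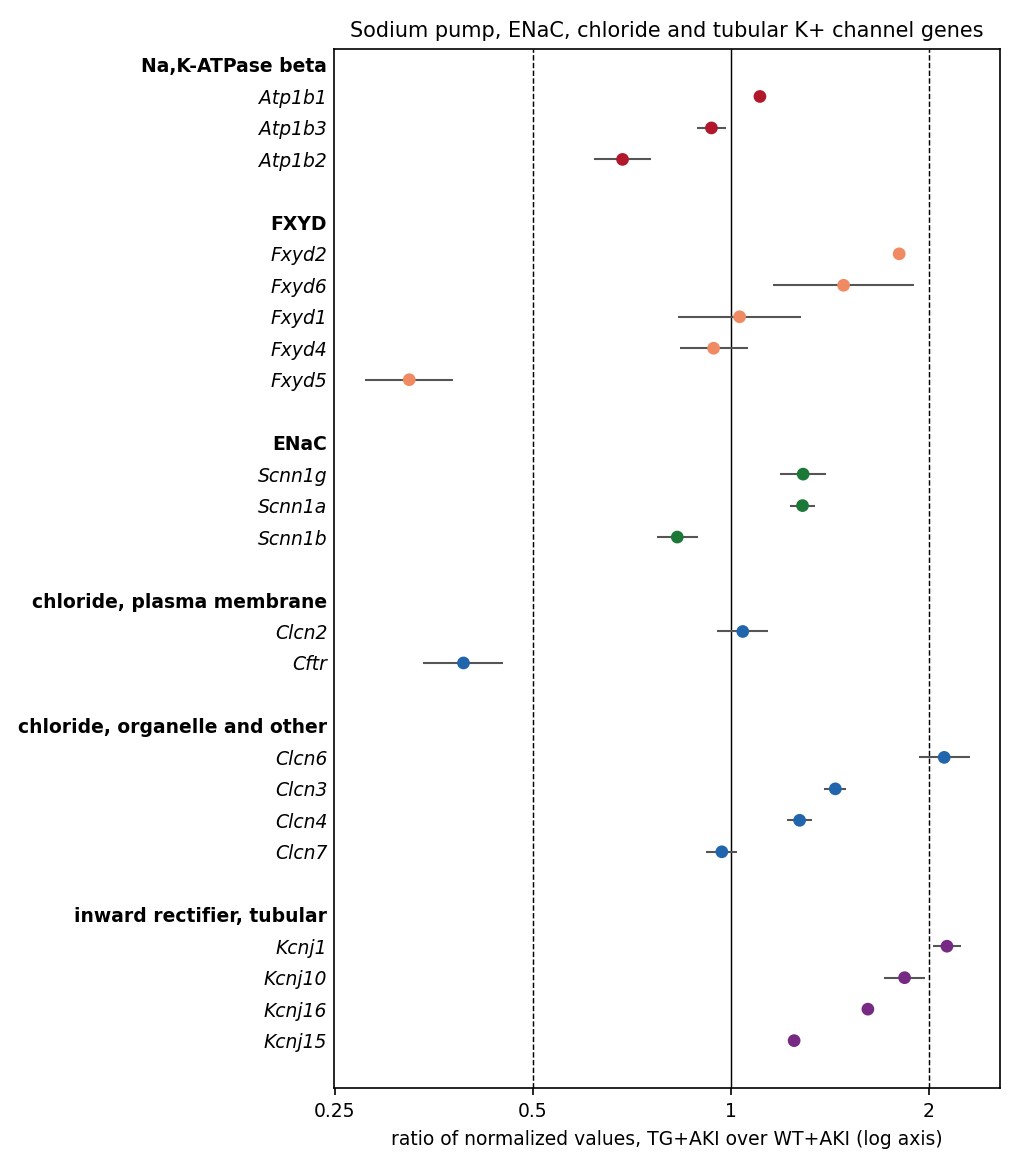
Ratio of the normalized values, TG+AKI over WT+AKI (x axis, log), of compared sodium pump, FXYD, ENaC, chloride and tubular inward rectifier genes, with 95% exact intervals of the reads as bars (counting error only) and dashed lines at 2-fold. *Kcnj1* and *Clcn6* lie to the right of the dashed lines, *Fxyd5* and *Cftr* to the left, and the intervals of the abundant genes are narrower than their points.

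Genes that act on these transporters were taken from a list of 16 partners and regulators, of which 13 could be compared. The list had a median log2 difference of 0.23. It gave 1 gene (7.69%) past 2-fold in each direction, where 6.46% of all compared genes were higher and 9.78% lower. The higher one was *Bsnd*, given above. The lower one was *St14*, encoding the protease matriptase, at 117.9 and 40.3, 2.92-fold lower [2.75 to 3.11]. *Prss8*, encoding prostasin, a protease that activates ENaC, was at 173.7 and 299.5, a ratio of 1.72 [1.67 to 1.78]. *Sgk1*, the kinase downstream of aldosterone, was at 186.5 and 191.7, a ratio of 1.03 [0.994 to 1.06] that includes 1. *Nr3c2*, the mineralocorticoid receptor, was at 9.03 and 13.7, a ratio of 1.51 [1.32 to 1.74].

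Other Kir channels lay within 2-fold. *Kcnj8*, the pore of vascular ATP-sensitive channels, was at 5.61 and 7.28, a ratio of 1.30 [1.08 to 1.56]. The intervals of *Kcnj2*, *Kcnj12* and *Kcnj5* included 1, with ratios of 1.22, 0.847 and 1.48. *Abcc9*, the sulfonylurea receptor that pairs with *Kcnj8*, was at 17.2 and 32.9, a ratio of 1.91 [1.74 to 2.10].

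Among the two-pore-domain channels, which carry background K+ current, the abundant members hardly differed. *Kcnk5* (TASK-2 of the proximal tubule) was at 118.3 and 128.8, a ratio of 1.09 [1.04 to 1.13], and *Kcnk1* at 58.8 and 59.7, a ratio of 1.02 [0.957 to 1.08]. Both were slightly higher in TG+AKI as deposited, at log2 differences of 0.12 and 0.02, and slightly lower with equal column totals (-0.15 and -0.25) or a median ratio of 1 (-0.02 and -0.12). *Kcnk6* (chr7:29221928-29232522), TWIK-2, was at 2.69 (114 reads) and 1.15 (38 reads), 2.34-fold lower [1.61 to 3.48]. That call was lost with a pseudocount of 1.

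The voltage-gated K+ channel pores were mostly at low levels. Of 25 genes, 9 could be compared, and 0 were higher and 2 (22.2%) lower by the 2-fold rule. Of all compared genes 6.46% were higher and 9.78% lower. Among all genes with a mean from 1 to 10, 24.5% passed 2-fold in either direction. *Kcnh1* (chr1:192189144-192510159), encoding the EAG1 channel, was at 2.05 (87 reads) in WT+AKI against 0.121 (4 reads) in TG+AKI. The ratio of the values was 17.0-fold lower [6.40 to 63.7], resting on 4 reads in TG+AKI. The log2 difference of -3.29 became -1.45 with a pseudocount of 1, and the gene passed the level filter only through WT+AKI. *Kcns3* (chr12:11090202-11151168), an electrically silent subunit that modifies other Kv channels, was at 3.04 (129 reads) and 1.27 (42 reads), 2.40-fold lower [1.68 to 3.48]. Its call was lost with a pseudocount of 1.

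The other compared pores named here were nearer to equal. *Kcnq1*, which forms an epithelial channel with Kcne subunits, was at 14.1 and 19.5, a ratio of 1.38 [1.24 to 1.55]. The pores *Kcnd3*, *Kcnc2*, *Kcna5* and *Kcnf1* had ratios of 1.21, 1.06, 0.747 and 1.11. The antisense *Kcnq1ot1* was at 6.68 and 7.40, a ratio of 1.11 [0.930 to 1.32], and its reads cannot be told from those of *Kcnq1* if strand was not used. The subunit *Kcne1* was at 13.1 and 14.3, a ratio of 1.09 [0.965 to 1.24] that includes 1. The log2 difference of *Kcne1*, 0.13, became -0.15 with equal column totals.

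Among the 9 auxiliary subunits, 7 were compared and 1 (14.3%) was higher, where 6.46% of all compared genes were. *Kcnab2* (chr4:152390744-152477549), a cytoplasmic beta subunit related to aldo-keto reductases, was at 1.51 (64 reads) and 5.19 (172 reads), a ratio of 3.44 [2.57 to 4.66]. It shares exon sequence on the same strand with the annotated gene Gm16334. *Kcne4* was at 4.58 and 3.14, a ratio of 0.686 [0.536 to 0.875]. The remaining 4 (*Kcnab1*, *Kcnab3*, *Kcnip2* and *Kcnip3*) had ratios of 1.346, 1.504, 1.078 and 0.814, each with an interval that includes 1.

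The K+ channels opened by intracellular calcium or sodium held 4 of the 7 genes that were at least 2-fold higher. Of these 4, *Kcnn2* passed the level filter only through TG+AKI. The calls of *Kcnn1* and *Kcnn2* were lost with a pseudocount of 1 and with equal column totals. *Kcnu1* and the auxiliary subunits *Kcnmb1* and *Kcnmb3* were counted in the same group. Of 10 genes, 6 were compared, 4 were higher and 0 lower, where 6.46% of all compared genes were higher and 24.5% of those with a mean from 1 to 10 passed 2-fold in either direction. With no filter *Kcnmb3* (9 against 1 reads) and *Kcnn4* (24 against 7 reads) were also past 2-fold, both lower. *Kcnma1* (chr14:23292288-24005110), the pore of the BK channel that secretes potassium at high flow, was at 1.04 (44 reads) in WT+AKI against 4.74 (157 reads) in TG+AKI. Its ratio of 4.57 [3.25 to 6.54] was the largest of the 64 compared genes as deposited, but its log2 difference of 2.09 became 1.49 with a pseudocount of 1, below the 1.59 of *Kcnt1*. *Kcnt1* (chr2:25863791-25918273), a sodium-activated channel known mainly from neurons, was at 4.93 (209 reads) and 16.8 (557 reads), a ratio of 3.41 [2.91 to 4.02].

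The small-conductance calcium-activated channels followed with lower read numbers. *Kcnn1* (chr8:70843158-70865691) was at 2.005 (85 reads) and 4.59 (152 reads), a ratio of 2.29 [1.74 to 3.02]. *Kcnn2* was at 0.849 (36 reads) and 2.05 (68 reads), a ratio of 2.42 [1.59 to 3.73]. Both calls were lost with a pseudocount of 1 and under equal column totals, and *Kcnn2* passed the level filter only through TG+AKI.

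Not every gene of this family was higher. *Kcnmb1*, the BK beta subunit of smooth muscle, was at 2.05 (87 reads) and 1.15 (38 reads), a ratio of 0.559 [0.372 to 0.828]. It was the opposite in direction to the pore gene *Kcnma1*, and of the scalings tried only equal column totals took it past 2-fold. *Kcnt2* was at 3.59 and 2.90, a ratio of 0.809 [0.620 to 1.05]. The smooth muscle and pericyte markers summed to 184.4 and 131.9, with 0 of 4 past 2-fold, and their part in these ratios was not tested. The median log2 difference was 1.17 over the 6 compared genes and 0.22 over all 10 with no filter.

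The TRP channels are cation channels for calcium, magnesium and sodium, and *Trpm7*, *Trpv4* and *Trpc1* were higher in TG+AKI while 2 vanilloid members were lower. *Trpm7*, the channel-kinase of magnesium balance, was at 135.6 and 212.7, a ratio of 1.57 [1.52 to 1.63]. *Trpv4*, the osmosensitive channel of distal tubules, was at 100.6 and 133.3, a ratio of 1.32 [1.27 to 1.38]. *Trpc1* was at 33.2 and 56.8, a ratio of 1.71 [1.60 to 1.84]. All of these were within 2-fold.

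The 2 TRP genes past 2-fold were both low in level. *Trpv6* (chr6:41620619-41636405), an epithelial calcium channel, was at 4.25 (180 reads) and 1.51 (50 reads), 2.81-fold lower [2.05 to 3.93]. *Trpv2* (chr11:62574486-62600305), a channel known from macrophages and other cells, was at 4.01 (170 reads) and 1.12 (37 reads), 3.59-fold lower [2.50 to 5.27]. *Trpm2*, an oxidant-activated channel of leukocytes, was at 1.58 (67 reads) and 0.211 (7 reads), 7.48-fold lower [3.44 to 19.3], with a mean under the filter. The macrophage markers were at 103.6 and 55.3 in sum, with 3 of 4 lower and *Csf1r* higher, at 37.5 and 43.0. The neutrophil markers were at 4.10 and 0.785 in sum. The part of these cell markers in the TRP ratios was not tested.

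Both directions were seen among other TRP genes. *Trpm3* was at 1.84 and 3.29, a ratio of 1.79 [1.33 to 2.42]. *Trpm4*, a calcium-activated sodium-permeable channel, was at 10.1 and 8.36, a ratio of 0.825. In podocytes *Trpc6* is the known member, and it had 8 and 15 reads, too few for a comparison. *Trpc4ap*, which is no channel, was at 93.2 and 121.9, a ratio of 1.31 [1.25 to 1.37].

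**Figure D4:**
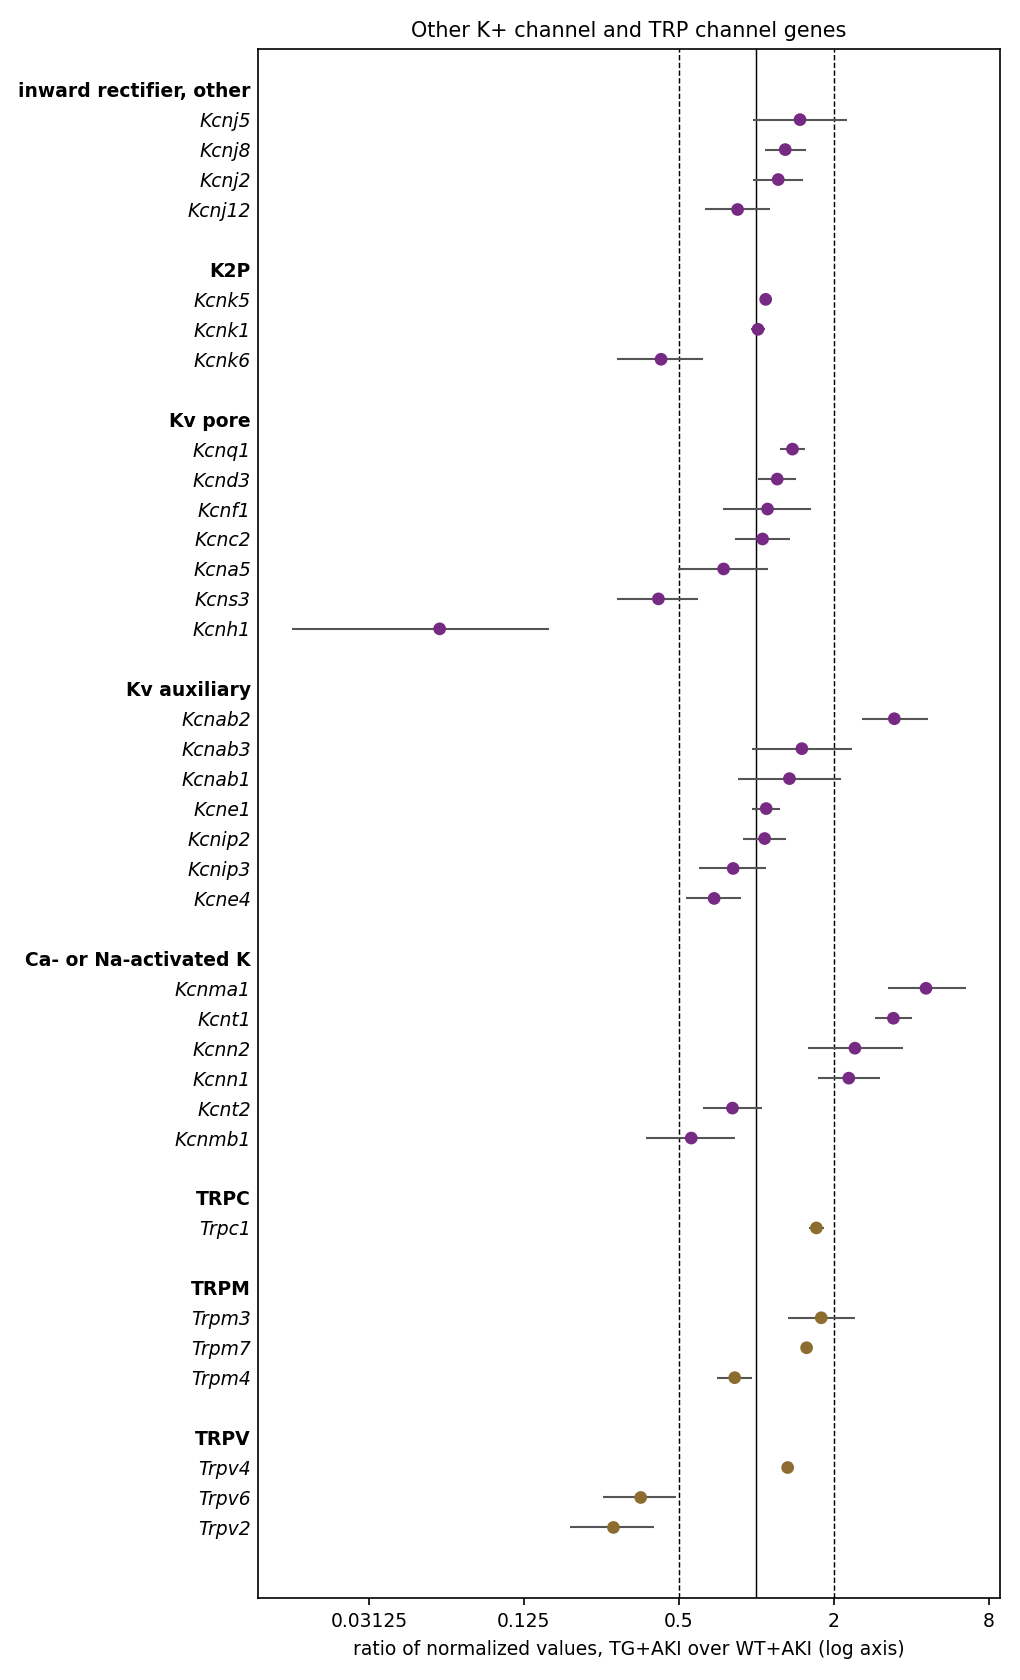
Ratio of the normalized values, TG+AKI over WT+AKI (x axis, log), of compared other K+ channel and TRP channel genes, with 95% exact intervals of the reads as bars (counting error only) and dashed lines at 2-fold. *Kcnma1*, *Kcnt1*, *Kcnn1*, *Kcnn2* and *Kcnab2* lie right of the dashed lines and *Kcnh1*, *Kcns3*, *Kcnk6*, *Trpv6* and *Trpv2* left of them, with *Kcnh1* carrying the widest interval.

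Below the filter were 36 genes, with 1 to 67 reads per library. Voltage-gated pores made up 16 of them and genes grouped with the calcium- or sodium-activated channels 4. The rest were 3 inward rectifiers, 3 two-pore-domain channels, 2 auxiliary subunits, 3 TRPC, 2 TRPM and 1 TRPV channel, 1 pump subunit and *Clcn1*. Their ratios rest on few reads, and 10 of the 100 genes had 3 reads or fewer in a library. *Kcnj13*, encoding Kir7.1, had 6 reads in WT+AKI against 46 in TG+AKI, a ratio of 9.82 [4.18 to 28.1], and its exons overlap *Gigyf2* on the opposite strand. *Kcnj11*, the pore of the ATP-sensitive channel of beta cells and muscle, had 18 and 47 reads, a ratio of 3.34 [1.91 to 6.12]. *Kcnn4*, an intermediate-conductance channel of blood cells and epithelia, had 24 and 7 reads and was 2.68-fold lower [1.12 to 7.36]. By the ratio of the deposited values, with no pseudocount, 10 of the 36 were past 2-fold upward and 6 downward. The share of all genes below the filter that did so is not given here. By the 2-fold rule, which adds the pseudocount, the higher ones were *Kcnb2*, *Kcng1*, *Kcnj11*, *Kcnj13*, *Kcnq3* and *Trpc4*. The lower ones were *Kcng4*, *Kcnmb3*, *Kcnn4* and *Trpm2*. With no filter, 13% of the 100 genes were higher and 11% lower by that rule, where 6.82% and 9.84% of all genes were.

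Several channel and pump genes lie next to each other in the genome. Within 100 kb, 8 pairs of neighbours were annotated, and in 7 pairs both genes were compared. The difference had the same sign in 5 of the 7 pairs. Of all 64 compared channel and pump genes, 42 were above 0 and 22 below, so many pairs share a sign wherever they lie. Among the 5 were *Fxyd6* and *Fxyd2* (3.55 kb apart), *Kcnj5* and *Kcnj1* (28.0 kb) and *Kcnj16* and *Kcnj2* (38.2 kb), all higher in TG+AKI. The intervals of *Kcnj5* [0.973 to 2.26] and *Kcnj2* [0.972 to 1.53] included 1. The sign differed for *Fxyd5* and *Fxyd1* (9.35 kb apart) and for *Scnn1g* and *Scnn1b* (96.6 kb).

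Read per length, a few transporters made up most of the expression, in a near-constant order. Per kb of the longest annotated transcript, *Atp1b1* was at 688.2 and 762.6, *Fxyd2* at 368.5 and 664.8, *Kcnj15* at 211.1 and 263.6 and *Kcnj16* at 106.8 and 172.6. These genes held ranks 2 to 5 in both libraries. Below them *Atp1b3* was at 41.0 and 38.3 per kb, *Kcnk5* at 34.9 and 38.0 and *Trpv4* at 31.2 and 41.3. *Kcnj1* went from rank 13 (20.6 per kb) in WT+AKI to rank 7 (44.0 per kb) in TG+AKI. The 5 genes with the most reads took 81.6% of the channel and pump reads in WT+AKI against 81.5% in TG+AKI.

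**Figure D5:**
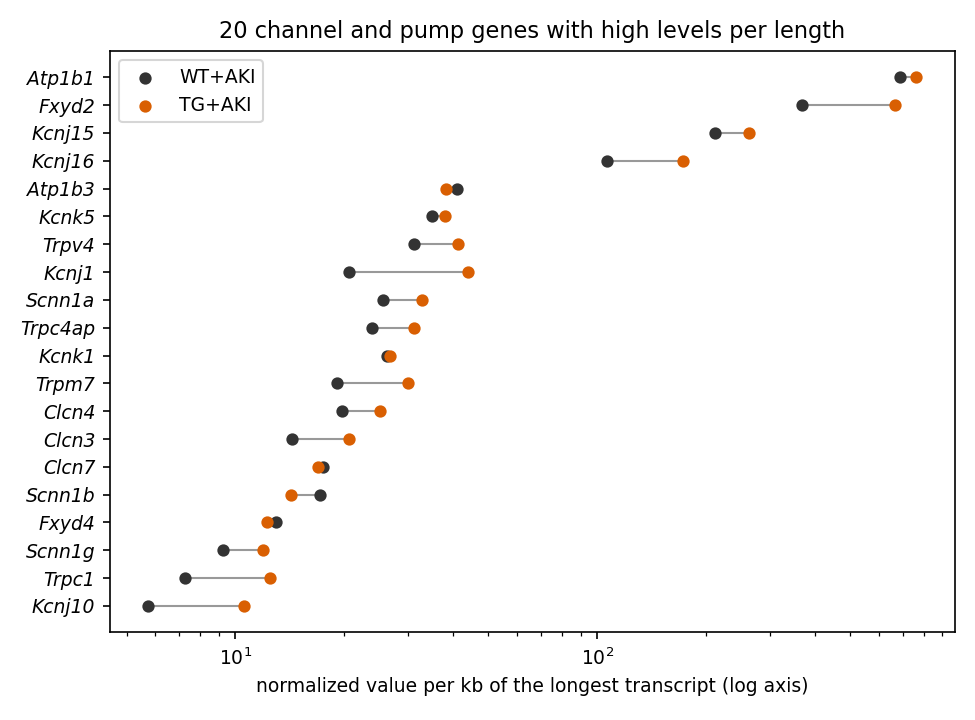
Normalized value per kb of the longest annotated transcript (x axis, log) in WT+AKI (dark points) and TG+AKI (orange points) for 20 channel and pump genes with high mean levels per kb. The first 4 genes keep their order in both libraries, and the line of *Kcnj1*, from 20.6 to 44.0, is the longest.

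Channels outside the symbol rule were also read from a list. Of 23 listed genes of the Piezo, LRRC8, anoctamin, P2X, polycystin and related families, 18 were compared, with a median log2 difference of -0.23. By the 2-fold rule 0 were higher and 2 (11.1%) lower, where 6.46% and 9.78% of all compared genes were. *Piezo1*, the stretch-activated channel, was at 194.5 and 73.9, 2.63-fold lower [2.51 to 2.75]. *Lrrc8e*, a subunit of the volume-regulated anion channel, was at 2.12 (90 reads) and 0.846 (28 reads), 2.51-fold lower [1.63 to 3.99]. Of 12 listed other ion pumps, 8 were compared and 1 (12.5%) was higher, where 6.46% of all compared genes were. The higher pump was *Atp4a*, the gastric-type H,K-ATPase alpha subunit, at 7.12 and 35.6, a ratio of 4.99 [4.40 to 5.69]. The median log2 difference of the 8 pumps was 0.39.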

How the data were processed

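Whole-kidney mRNA libraries (stranded TruSeq kit) of WT+AKI and TG+AKI, 1 per group, were compared. The submitters' processing notes name STAR 2.7.3a, HTSeq, Cufflinks 2.2.1, FastQC, edgeR and DESeq2 with build mm10. The strand setting and annotation of counting are not given in the sources used here. The authors deposited 1 normalized signal value per gene and library, made from read counts divided by a library factor. Divided by its column's minimum, each value came out whole (100%, tolerance 1e-06), which recovered the reads. TMM factors of those reads (edgeR 4.0.16) were 1.10 and 0.909 and give the deposited scale. Genes were listed only with reads in both libraries (lowest 1).

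Genes with a mean of the 2 values of at least 1 were compared as log2(value + 0.1), which understates changes of low genes, and called at 2-fold. Ratios carry 95% Clopper-Pearson intervals. No test of the conditions was made. A two-sided exact binomial test on the recovered reads, with Benjamini-Hochberg adjustment, was added after the data were seen. It called 5206 genes higher and 5493 lower, and it compares libraries only.

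Gene bodies came from RefSeq, found for 100 of the 100 genes by NCBI Gene ID. Transcript lengths, exon overlaps and shared 100-base words came from GENCODE M21 (GRCm38), matched for the 100 genes by NCBI Gene ID or symbol. Of these genes, 4 shared any word with another gene, 3 had exons overlapping another gene on the same strand and 29 on the opposite strand. Promoter windows came from RefSeq (GRCm38.p6). Motifs were also searched for AP-1 (TGANTCA), NF-kB (GGGANNNCC) and the TATA box (TATAAA), found in 4.08%, 21.4% and 5.10% of channel and pump windows and in 6.75%, 15.8% and 12.4% of all windows.

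The genes and lists were chosen with earlier results of these data known. Full values are given for the pump, FXYD, ENaC, plasma membrane chloride and tubular inward rectifier genes, for every other compared gene past 2-fold and for the 10 highest per kb, except that 8 genes are counted but not reported here. The marker lists not printed in the report summed to 94.7 and 112.5 (podocyte) and 227.6 and 243.0 (endothelium), with 0 genes past 2-fold, and to 0.307 and 0.664 (T cell), whose genes were below the filter. Of the adrenal list only *Star* was found, at 2.15 and 1.45, and no skeletal muscle marker was analysed here. Alternatives were another pseudocount, filter, scaling or fold. The procedure was tested on simulated data. Python 3.11.15, numpy 2.4.6, scipy 1.17.1, pandas 2.3.3, matplotlib 3.10.9, R 4.3.3 and DESeq2 1.42.0 were used.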

Additional observations from a re-analysis of the deposited data

How the results depend on the processing

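The counts of genes past 2-fold depend mostly on the level filter and the scaling. As reported, 2-fold was passed upward in TG+AKI by 940 of all genes and downward by 1423. A mean of at least 10 gave 557 and 657, and a value of at least 10 in 1 library with a pseudocount of 1 gave 591 and 733. A threshold of 1.5-fold gave 2149 and 2657, and the exact binomial test 5206 and 5493. Equal column totals gave 610 higher and 2101 lower. The share of higher genes among those past 2-fold was 39.8% as reported, 22.5% under equal column totals and 30.1% under a median ratio of 1.

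Of the channel and pump genes, 7 (10.9%) were higher and 7 (10.9%) lower, where 6.46% and 9.78% of all genes passed. No filter gave 13 (13%) and 11 (11%), where 6.82% and 9.84% of all genes passed. A mean of at least 10 gave 3 (9.09%) and 2 (6.06%), where 5.65% and 6.67% of all genes passed. A value of at least 10 in 1 library with a pseudocount of 1 gave 3 (8.82%) and 2 (5.88%). Of all genes, 5.74% and 7.12% passed. Equal column totals gave 3 (4.69%) higher and 8 (12.5%) lower, losing *Clcn6*, *Kcnj1*, *Kcnn1* and *Kcnn2* and gaining *Kcnmb1*. Of all genes, 4.19% and 14.4% passed. A median ratio of 1 gave 5 (7.81%) and 7 (10.9%), where 5.16% and 12.0% of all genes passed. A pseudocount of 1 gave 5 (7.81%) and 5 (7.81%), where 5.26% and 7.67% did. A threshold of 1.5-fold gave 14 (21.9%) higher and 9 (14.1%) lower, where 14.8% and 18.3% of all genes passed. The exact binomial test gave 29 (45.3%) and 15 (23.4%), where 35.8% and 37.8% of all genes were called. No pseudocount, DESeq2 size factors or the addition of an interval that excludes 1 left both counts at 7. Under these 3 settings 6.46% to 6.71% of all genes were higher and 9.52% to 10.1% lower. The median log2 difference of the channel and pump genes was 0.15 as reported and -0.12 with equal column totals. The sign changed for 12 genes under equal column totals and for 8 under a median ratio of 1, all of them at differences of at most 0.27 as reported. No paired analysis was possible because each group has 1 library, and for the same reason no replicate could be left out. Depth limits the 36 genes below the filter.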
